A study of Mus musculus with 9 samples.

Results

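Guanylate-binding proteins (GBPs) are large GTPases, and 10 mouse genes of the family, Gbp2b, Gbp2, Gbp3, Gbp4, Gbp5, Gbp6, Gbp7, Gbp8, Gbp9 and Gbp10, were followed in regulatory T cells (Tregs) of the gut. The members were chosen by name, as all rows of the deposited table whose platform annotation gives one of these symbols, and the family was selected on the measured fall of 1 member, Gbp2b, in Y3 against wild type. Of the 39137 rows, or probe sets, 10 met the rule. Of these, 9 name 1 gene alone, and 1 names both Gbp2 and Gbp2b, so Gbp2 has no row of its own. Because the fall of Gbp2b chose the family, the members' differences from wild type are described without p-values, and of the members' comparisons only Y3/CD103-/- against Y3, which shares the Y3 arrays with that choice, is tested. Genes outside the family are tested in all 3 comparisons.

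Tregs were sorted from the lamina propria of small and large bowel by a red fluorescent reporter of Foxp3, which all 3 groups carry, and their RNA was hybridized to Affymetrix Gene ST arrays, 3 arrays per genotype and 9 in all. The groups are C57BL/6 wild type (WT), C57BL/6 Y3, and C57BL/6 Y3 that also lacks CD103 (Y3/CD103-/-). CD103 is the αE integrin chain, encoded by Itgae. The labels do not define Y3, which the series title ties to IL-2Rβ, the receptor subunit encoded by Il2rb, and they give no age, no promoter or driver for Y3 and no record of whether an array holds 1 animal or a pool. Every error below is therefore the spread between 3 arrays, and a group that lacks CD103 with an unaltered receptor was not analysed here.

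As a check of the labels, the log2 signal of Itgae averaged 7.93 ± 0.12 over the WT arrays (SD, n = 3), 9.32 ± 0.20 over Y3 and 6.52 ± 0.42 over Y3/CD103-/-, lowest where the labels say it is missing. Foxp3, the factor that defines Tregs, was at 9.38 ± 0.09, 9.52 ± 0.17 and 9.55 ± 0.06, and the mean of 11 Treg markers lay between 9.09 and 9.28 on all 9 arrays. Single Treg markers did differ: Il2ra, the IL-2 receptor α chain, fell by 0.86 log2 in Y3/CD103-/- against WT (adjusted p = 0.0288 in limma) and differed by -0.65 in Y3 (0.0837), and the cytokine gene Il10 differed by -0.69 in Y3 and -0.81 in Y3/CD103-/- without passing (0.113 and 0.073). Other markers of this list went the other way. Of the 11, 7 were higher and 4 lower in Y3 against WT, and 8 higher and 3 lower in Y3/CD103-/- against WT. In Y3, Icos (0.45 log2), Tnfrsf4 (0.38) and Ikzf2 (0.35) were higher without passing (adjusted p = 0.2065, 0.2282 and 0.2312 in limma). Il2rb averaged 9.19 ± 0.22, 8.15 ± 0.32 and 8.16 ± 0.31. Markers of other gut cells varied. Over WT, Y3 and Y3/CD103-/- in that order, the mean of 16 epithelial genes ranged from 5.15 to 6.30, 4.15 to 4.96 and 4.11 to 6.06, and that of 16 macrophage and dendritic cell genes from 4.05 to 4.70, 3.85 to 3.98 and 4.36 to 4.46. With a bulk sort, fewer cells of a type and less RNA per cell cannot be told apart.

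GBPs belong to the dynamin superfamily and are among the genes most strongly induced by interferon-γ and they also respond to type I interferons. They gather on vacuoles and on bacteria in the cytosol, where they disrupt membranes and help inflammasomes sense the microbe. The mouse genes lie in a cluster on chromosome 3 (Gbp5, Gbp7, Gbp3, Gbp2b and Gbp2, in that order in the GRCm38.p6 gene table) and another on chromosome 5 (Gbp8, Gbp9, Gbp4, Gbp10 and Gbp6). Gbp2b, formerly called Gbp1, and Gbp2 are direct neighbours and close copies.

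The promoter sequences of the chromosome 3 genes were examined because the row of Gbp2b and the row it shares with its neighbour Gbp2 parted in these arrays. RefSeq promoters on GRCm38.p6 were matched for 5 of the 10 members, Gbp5, Gbp7, Gbp3, Gbp2b and Gbp2, with 6 annotated starts. Each of the 5 genes held the core of the interferon-stimulated response element (ISRE), searched as GAAANNGAAA on both strands, in the 250 bases before at least 1 start, and 2.98% of all 32851 promoters did so. The match lay 137 to 128 bases before the start in Gbp2b and 59 to 50 bases before it in Gbp2, and the same letters, TTTCACTTTC, were read in both, the reverse complement of the letters searched. The interferon-γ activated site (GAS), searched as TTCNNNGAA, which is its own reverse complement, was matched at 2 places each in Gbp5 and Gbp7, in neither Gbp2b nor Gbp2, and in 7.02% of all promoters. The 2 motifs did not overlap in these windows, though Gbp3 held a pair of overlapping ISRE matches. A match is a run of letters and not a measured binding site. The 250 bases before the start are printed for Gbp2b (chr3:142594597-142594846, plus strand), for Gbp2 (chr3:142620413-142620662, plus strand), its neighbour, and for Gbp7 (chr3:142530086-142530335, plus strand), which holds both motifs. Capitals mark the ISRE and GAS matches.
Gbp2b: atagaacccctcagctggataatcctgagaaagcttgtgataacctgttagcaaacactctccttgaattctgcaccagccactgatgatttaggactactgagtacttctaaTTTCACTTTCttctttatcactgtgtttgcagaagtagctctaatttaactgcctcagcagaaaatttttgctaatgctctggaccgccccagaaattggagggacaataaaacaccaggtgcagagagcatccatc
Gbp2: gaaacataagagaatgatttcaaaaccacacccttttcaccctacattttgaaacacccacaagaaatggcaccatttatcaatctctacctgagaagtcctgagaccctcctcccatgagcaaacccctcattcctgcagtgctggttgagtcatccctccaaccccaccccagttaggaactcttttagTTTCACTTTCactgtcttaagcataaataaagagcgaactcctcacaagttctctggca
Gbp7: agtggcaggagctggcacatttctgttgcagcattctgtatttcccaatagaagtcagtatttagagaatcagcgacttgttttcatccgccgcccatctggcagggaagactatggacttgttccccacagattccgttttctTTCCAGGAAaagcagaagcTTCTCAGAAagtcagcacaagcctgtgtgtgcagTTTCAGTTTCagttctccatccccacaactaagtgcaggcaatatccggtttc

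Aligned end to end, the windows of Gbp2b and Gbp2 were identical at 46.7% of positions, gaps counted as differences. The other pairs of the 6 windows ranged from 40.1% to 51.1%, so these 250 bases were no more alike between Gbp2b and Gbp2 than between more distant members.

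**Figure D1:**
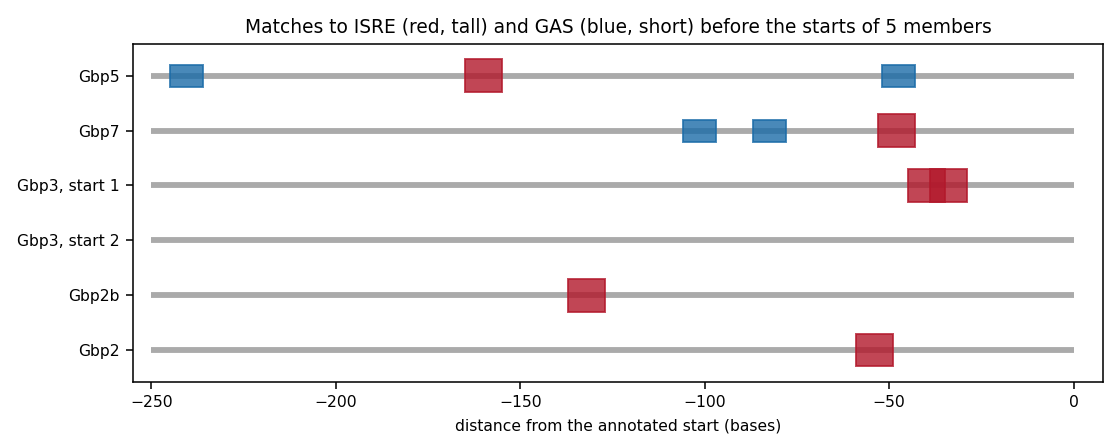
Matches to the ISRE (red, tall boxes) and GAS (blue, short boxes) letters in the 250 bases before 6 annotated starts of 5 members; the x axis is the distance from the start in bases. Each gene has an ISRE match, and GAS matches are in Gbp5 and Gbp7.

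Gbp2b, an interferon-inducible GTPase that can carry a lipid anchor, was the member the family was chosen on. It read 5.54, 6.18 and 6.49 (log2) on the WT arrays, 3.60, 3.35 and 3.96 on the Y3 arrays, and 3.50, 3.30 and 3.07 on the Y3/CD103-/- arrays. The WT arrays stood above all 6 others, and the lowest WT value was 1.58 higher than the highest of the rest. Group means were 6.07 ± 0.48 (SD, n = 3), 3.64 ± 0.30 and 3.29 ± 0.21. The median of all rows of an array was 3.15 to 3.23, so the altered genotypes sat near the middle of the array, where a further fall would be hard to see. As a description of the contrast that chose the family, Gbp2b lay 5.39-fold lower in Y3 than in WT (log2 -2.43 ± 0.25, SE). Against WT it lay 6.86-fold lower in Y3/CD103-/- (-2.78 ± 0.25), and this second value uses the same WT arrays. The tested comparison, Y3/CD103-/- against Y3, gave a log2 difference of -0.35 ± 0.25 (95% interval -0.91 to 0.21, adjusted p = 0.656 in limma). For this row that test reuses the low Y3 values that chose it, near the array median. It therefore cannot decide whether loss of CD103 on the Y3 background alters Gbp2b.

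The probe set shared by Gbp2 and Gbp2b went the other way. It read 5.93, 5.27 and 5.78 in WT, 6.43, 6.02 and 6.37 in Y3, and 5.84, 6.05 and 6.19 in Y3/CD103-/-. All Y3 arrays stood above all WT arrays, while Y3/CD103-/- overlapped both. Its log2 difference was 0.61 ± 0.20 (SE) in Y3 and 0.36 ± 0.20 in Y3/CD103-/-, each against WT, where Gbp2b alone was at -2.43 and -2.78. Between Y3/CD103-/- and Y3 it was -0.25 ± 0.20 (adjusted p = 0.702 in limma). Gbp2, best known for restricting Toxoplasma vacuoles, and Gbp2b cannot be told apart on this row, and how its probes divide between the pair was not analysed here.

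**Figure D2:**
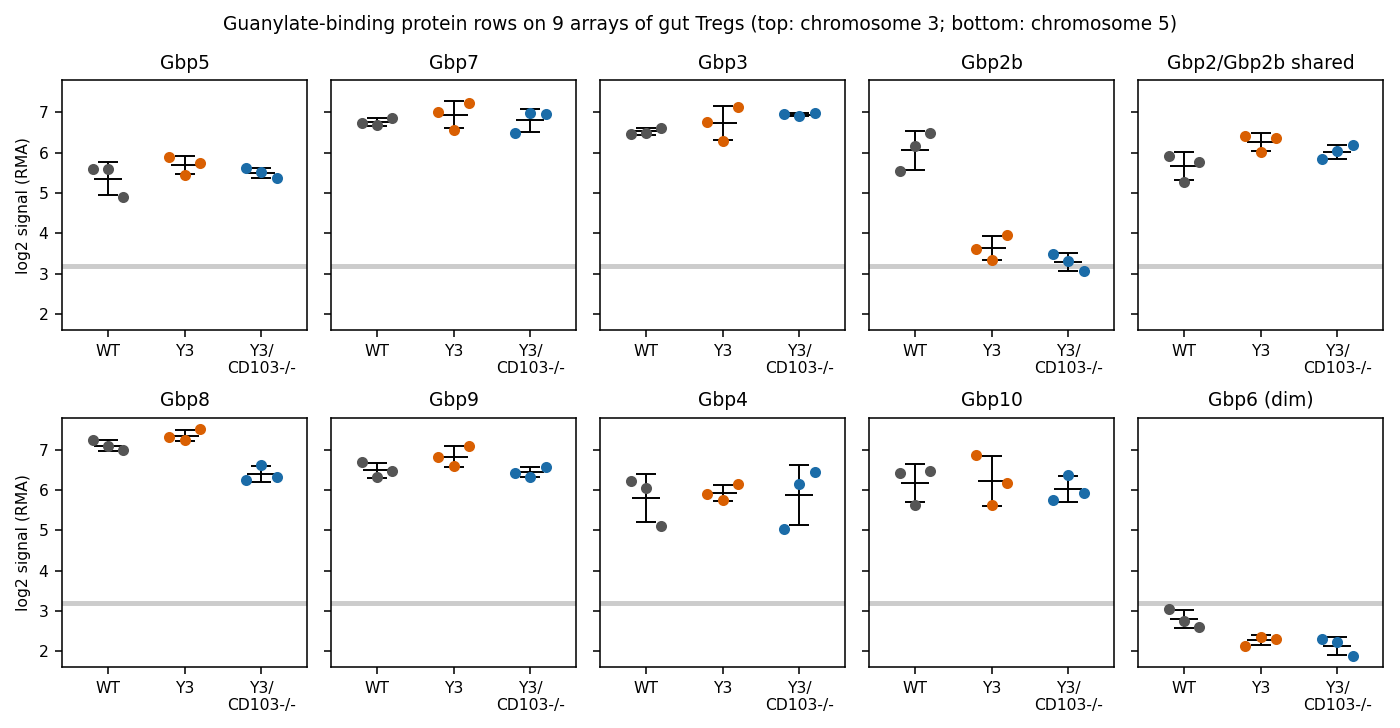
The log2 signal (y axis) of each of the 10 probe sets on the WT (grey), Y3 (orange) and Y3/CD103-/- (blue) arrays; points are arrays, black bars the mean ± SD of 3, and the grey band is the range of the array medians, 3.15 to 3.23. Gbp2b drops from 6.07 to 3.64 and 3.29, the shared row does not, Gbp8 is lowest in Y3/CD103-/-, and Gbp6 lies under the band on all arrays. Heights are comparable within a panel only.

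The other chromosome 3 members stayed near their WT values. Gbp5, which is known to promote inflammasome assembly, read 5.59, 5.59 and 4.89 in WT, 5.90, 5.46 and 5.74 in Y3, and 5.61, 5.51 and 5.36 in Y3/CD103-/-, and the 3 groups overlapped. Its difference from WT was 0.34 ± 0.21 (SE) in Y3 and 0.14 ± 0.21 in Y3/CD103-/-. Gbp7, which is known to support oxidative defence in macrophages, read 6.74, 6.68 and 6.86 in WT, 7.02, 6.57 and 7.24 in Y3, and 6.48, 6.995 and 6.95 in Y3/CD103-/-. Its values overlapped as well, with differences from WT of 0.18 ± 0.21 and 0.05 ± 0.21. Gbp3 read 6.47, 6.49 and 6.63 in WT, 6.76, 6.30 and 7.14 in Y3, and 6.95, 6.91 and 6.99 in Y3/CD103-/-. Here the Y3 arrays spread across the range of both other groups, and the Y3/CD103-/- arrays all lay above WT, by 0.42 ± 0.20. In the tested comparison of Y3/CD103-/- with Y3, the differences were -0.20 ± 0.21 for Gbp5, -0.13 ± 0.21 for Gbp7 and 0.21 ± 0.20 for Gbp3, with adjusted p of 0.769, 0.860 and 0.735.

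On chromosome 5, Gbp8 had the largest difference between Y3/CD103-/- and Y3 of the 9 tested rows. It read 7.24, 7.09 and 6.98 in WT, 7.31, 7.24 and 7.52 in Y3, and 6.25, 6.62 and 6.32 in Y3/CD103-/-. The Y3/CD103-/- arrays lay below all 6 others, and WT and Y3 touched at 7.24. Against Y3 the log2 difference was -0.96 ± 0.16 (SE), or 1.94-fold lower (95% interval -1.32 to -0.60). Among all rows tested, this difference did not pass (adjusted p = 0.195 in limma, unadjusted 0.000118). Its adjusted p was 0.025 with a mean-variance trend and 0.0482 with array weights, and rose to 0.771 without Y3 array 1 and 0.842 without Y3 array 3. The log2 difference itself was -0.98 without Y3 array 1 and -0.88 without Y3 array 3. It ran from -1.07 to -0.87 over 21 alternatives. Against WT, Gbp8 lay 0.25 ± 0.16 higher in Y3 and lay 1.63-fold lower in Y3/CD103-/- (log2 -0.71 ± 0.16).

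Gbp9, the neighbour of Gbp8, read 6.69, 6.32 and 6.48 in WT, 6.82, 6.59 and 7.09 in Y3, and 6.43, 6.33 and 6.58 in Y3/CD103-/-. All Y3 arrays were above all Y3/CD103-/- arrays, though by little at the nearest pair, and the difference of -0.39 ± 0.18 did not pass (adjusted p = 0.495 in limma). Gbp4 and Gbp10 were the noisiest members. Gbp4 read 6.22, 6.06 and 5.12 in WT, 5.90, 5.75 and 6.14 in Y3, and 5.04, 6.16 and 6.44 in Y3/CD103-/-. Gbp10 read 6.42, 5.63 and 6.48 in WT, 6.88, 5.63 and 6.17 in Y3, and 5.76, 6.39 and 5.94 in Y3/CD103-/-. In both, single arrays of 1 genotype spanned more than the genotype means, so a difference of the size seen for the shared row could not have been resolved. For Y3/CD103-/- against Y3, Gbp4 differed by -0.05 ± 0.37 and Gbp10 by -0.20 ± 0.33, with adjusted p of 0.976 and 0.868.

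Gbp6 was the 1 member left out of the tests. It read 3.06, 2.75 and 2.61 in WT, 2.13, 2.37 and 2.32 in Y3, and 2.30, 2.24 and 1.89 in Y3/CD103-/-, under the array median on all 9 arrays. The WT values stood above all others, with differences of -0.53 ± 0.19 for Y3 minus WT and -0.67 ± 0.19 for Y3/CD103-/- minus WT in a fit without the filter. At such a level these differences say little about the gene, and Gbp6 is in no count below.

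Over the 9 tested rows, calls are counted for Y3/CD103-/- against Y3 alone, since the fall of Gbp2b against WT chose the family. Of all 14621 tested rows, 0.663% were called in Y3 against WT and 0.793% in Y3/CD103-/- against WT (limma, adjusted p under 0.05). In Y3/CD103-/- against Y3, 0 of 9 rows were called in limma and 0.0137% of all rows were, 2 rows in all. At an unadjusted p under 0.05 there were 2 member rows, Gbp8 and Gbp9, both lower, where 10.1% of all rows reached that threshold. Genotypes did not overlap in 2 of the 9 rows for Y3 against WT (23.6% of all rows), 3 for Y3/CD103-/- against WT (17.5%) and 2 for Y3/CD103-/- against Y3 (18.6%). The last count is near the background, and nothing is read from the others.

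Set against the other copies, the difference of Gbp2b from WT was several times that of any other tested member row. In Y3 against WT the other 8 tested rows had a median difference of 0.23 log2, from 0.05 to 0.61, where the median of all rows was 0.14, and the gap from Gbp2b to that median was -2.66. The other 8 in Y3/CD103-/- against WT had a median of 0.07, from -0.71 for Gbp8 to 0.42 for Gbp3, and the gap was -2.85. Both comparisons share the WT arrays. Between Y3/CD103-/- and Y3 the gap was only -0.15, with a median of -0.20 for the other 8 against -0.10 for all rows. These medians of the other copies were of the order of the median of all rows, while single rows reached 0.61, 0.42 and -0.71. Some signs depended on the scaling in Y3 against WT. In Y3/CD103-/- against WT all 9 tested rows kept their sign after quantile normalization. In Y3 against WT, 8 of the 9 tested rows were higher as deposited and after median centring, and 6 after quantile normalization, while Gbp2b was at -2.54 after quantile normalization. The rows called over the whole array split 76 up and 21 down in that comparison, and 43 and 24 after quantile normalization.

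**Figure D3:**
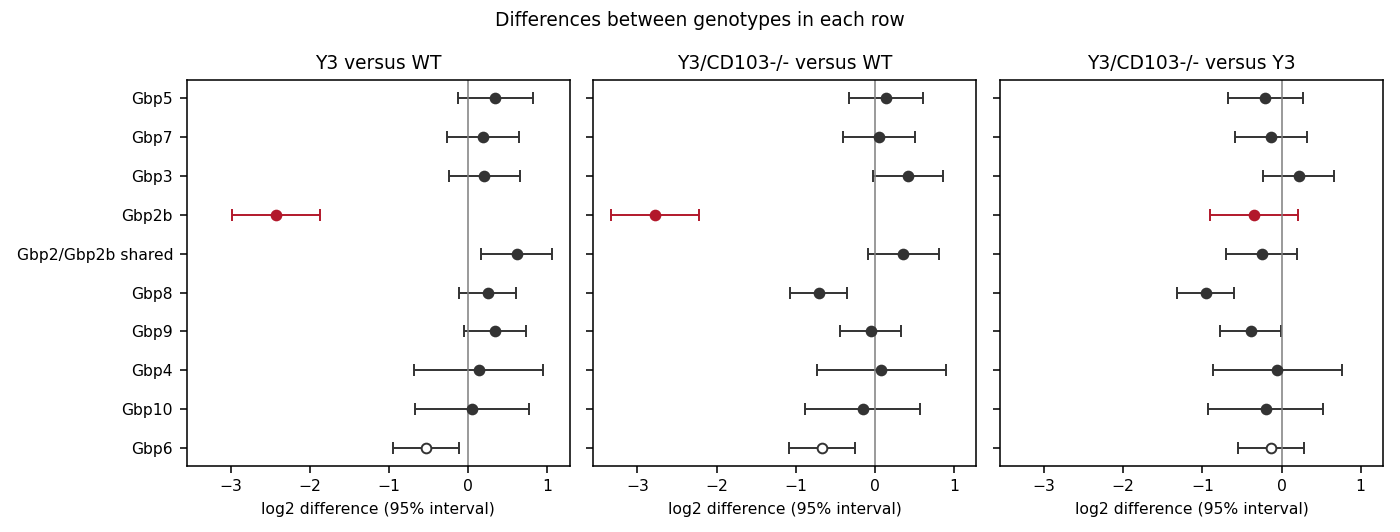
Log2 differences (x axis) of the 10 probe sets in the 3 comparisons, with 95% intervals from limma; Gbp2b is in red, and the open symbol is Gbp6, from a fit without the filter. Gbp2b is at -2.43 and -2.78 against WT and at -0.35 between Y3/CD103-/- and Y3, where Gbp8 is at -0.96.

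Markers of other cells moved with some of these groups. Macrophages express GBPs, and in Y3 the macrophage and dendritic list lay below WT, with 10 of 12 tested genes lower and 1 of them, H2-Aa, called. The other 2 were higher, and of them Cd68 lay 0.77 log2 above WT without passing (adjusted p = 0.0779 in limma). For Y3/CD103-/- that list lay inside the WT range (4.36 to 4.46, against 4.05 to 4.70), with 6 of 12 genes lower than in WT. Of these 12, 0 were called in limma, and 1 gene, Cd68, higher by 0.74 log2, had an unadjusted p under 0.05. Gbp2b was at 3.35 to 3.96 on the Y3 arrays and 3.07 to 3.50 on the Y3/CD103-/- arrays, and its relation to this list was not tested. The epithelial list was lower than WT for 13 of 15 tested genes in both altered genotypes, 0 called in limma and 5 and 2 lower at an unadjusted p under 0.05. Over all rows, 16.5% reached that threshold in Y3 against WT and 13.3% in Y3/CD103-/- against WT. Markers of B and plasma cells (7 tested) and of stromal and endothelial cells (4 tested) had 0 calls in limma, with 3 and 0 lower in Y3 at an unadjusted p under 0.05. The part of these cell types in any GBP difference was not tested.

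Deviations of the member rows within a genotype were compared. Y3 array 2 gave the lowest of the 3 Y3 values in all 9 tested member rows, Gbp2b included, where it did so in 55.4% of all tested rows. After quantile normalization it was 8 of 9 member rows against 40.4% of all. With each value taken as its deviation from the genotype mean, 29 of the 36 pairs of member rows correlated above 0 over the 9 arrays (median r = 0.35, from -0.55 to 0.80). The closest pair was the shared row with Gbp10 (r = 0.80), followed by Gbp7 with Gbp3 (0.76). Gbp2b against the shared row was at -0.20. These pairs share arrays and their scaling, and are given as a description. No such share was computed for pairs of other rows, so nothing particular to the family is read from them.

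The genes beside the clusters were read for comparison with Gbp2b. Of the 3 named protein-coding genes on each side of the chromosome 3 cluster, Pdlim5, Gtf2b and Pkn2 were tested, and Unc5c, Bmpr1b and Kyat3 were too dim. Pdlim5, a scaffold protein of the cytoskeleton, differed by -0.02 ± 0.23 log2 in Y3 against WT, Gtf2b, the general transcription factor TFIIB, by 0.23 ± 0.20, and Pkn2 by 0.23 ± 0.14. Between Y3/CD103-/- and WT they differed by 0.07 ± 0.23, 0.08 ± 0.20 and -0.02 ± 0.14, and none of the 3 passed in either comparison (adjusted p from 0.418 to 0.973 in limma). Beside Gbp8, Abcg3 differed by 0.05 ± 0.20 in Y3/CD103-/- against Y3, where Gbp8 was at -0.96. On the far side of that cluster, Lrrc8b and Lrrc8c, subunits of volume-regulated anion channels, differed by -0.30 ± 0.16 and -0.28 ± 0.22 and Lrrc8d by 0.45 ± 0.24, and none of these passed (adjusted p from 0.533 to 0.956).

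Ifng, the gene of the signal that usually drives GBPs, was higher in the genotypes where Gbp2b was lower. It read 3.72, 4.14 and 3.96 in WT, 5.53, 5.47 and 5.72 in Y3, and 4.93, 5.87 and 5.40 in Y3/CD103-/-. All WT arrays were below the other 6. Ifng rose by 1.63 ± 0.23 log2 in Y3 (adjusted p = 0.0149 in limma) and by 1.46 ± 0.23 in Y3/CD103-/- (0.0218). The rise in Y3 did not pass without Y3 array 1 (0.0991), 2 (0.0521) or 3 (0.116), nor that in Y3/CD103-/- without WT array 1 (0.0681) or 3 (0.0551) or Y3/CD103-/- array 2 (0.0516) or 3 (0.085). Some genes of cytotoxic lymphocytes were higher in the same genotypes. Of 10 tested CD8 T and NK cell markers, 3 were called up in both comparisons with WT, the granule gene Nkg7 (2.03 and 1.93 log2) and the granzymes Gzma (1.22 and 1.30) and Gzmb (0.89 and 1.07), and the mean of all 12 spanned 4.73 to 5.01 over WT, 5.06 to 5.22 over Y3 and 5.08 to 5.36 over Y3/CD103-/-. In Y3 against WT 4 of the 10 were lower, Tyrobp (-1.09) and Fcer1g (-0.87) among them at unadjusted p of 0.0102 and 0.00986, and the median of the 10 was 0.19 against 0.14 for all rows. The lineage markers Cd8a (0.13), Cd8b1 (-0.25) and Ncr1 (-0.19) did not pass in limma. The part of such cells in the Ifng difference was not tested. The interferon-γ receptor chains Ifngr1 and Ifngr2 lay lower in Y3 on every array, by -0.35 ± 0.14 and -0.53 ± 0.18, and did not pass (adjusted p = 0.244 and 0.198). In Y3/CD103-/- against WT they differed by -0.19 ± 0.14 and -0.65 ± 0.18, also without passing (adjusted p = 0.603 and 0.144 in limma). Irf1, the factor that switches on many GBPs, averaged 5.57 ± 0.38 over WT (SD, n = 3), 5.70 ± 0.03 over Y3 and 5.87 ± 0.13 over Y3/CD103-/-, with a difference of 0.14 ± 0.19 in Y3 (adjusted p = 0.747) and 0.31 ± 0.19 in Y3/CD103-/- (0.534). Socs1, the feedback inhibitor of interferon-γ signalling, lay 0.87 ± 0.18 higher in Y3 and did not pass (adjusted p = 0.0616). It lay 0.57 ± 0.18 higher in Y3/CD103-/- than in WT, which did not pass either (adjusted p = 0.1925 in limma).

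Socs3, another feedback inhibitor, rose by 0.91 ± 0.17 in Y3 (adjusted p = 0.045 in limma), and this did not pass without any 1 of the 9 arrays (0.0627 to 0.221). Casp4, the caspase that binds bacterial lipopolysaccharide and acts with GBPs, rose in Y3, from 7.03 ± 0.14 (SD, n = 3) in WT to 8.21 ± 0.10 (adjusted p = 0.011). It stood at 7.85 ± 0.08 in Y3/CD103-/- and rose there against WT as well (adjusted p = 0.0323). The rise in Y3 did not pass without Y3 array 1 (0.0594) or 3 (0.0962), and that in Y3/CD103-/- did not pass without any 1 of the 9 arrays (0.0543 to 0.121).

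The families that work beside GBPs gave few calls. Counts at an unadjusted p under 0.05 are to be read against 16.5% of all rows in Y3 against WT, 13.3% in Y3/CD103-/- against WT and 10.1% in Y3/CD103-/- against Y3. Of 9 tested immunity-related GTPases, which work with GBPs at vacuoles, 0 were called in any comparison with limma. At an unadjusted p under 0.05, 2 were higher in Y3, 2 were higher in Y3/CD103-/- against WT, and 1 was lower in Y3/CD103-/- against Y3. Igtp, the brightest of them, averaged 7.67 ± 0.04 over WT (SD, n = 3), 7.78 ± 0.09 over Y3 and 7.61 ± 0.27 over Y3/CD103-/-, and Irgm2 averaged 6.81 ± 0.20, 6.75 ± 0.16 and 6.75 ± 0.20. Of 13 tested interferon-γ signalling genes, Ifng and Socs3 were called up in Y3. Of 18 interferon-γ target genes 0 were called in Y3 in limma (5 above WT and 0 below at an unadjusted p under 0.05), and their median was 0.18 log2 against 0.14 for all rows. Of 24 type I interferon genes 0 were called in Y3 (5 higher, 0 lower unadjusted), with a median of 0.26, and in Y3/CD103-/- against Y3 0 were called and 4 were lower unadjusted, with a median of -0.21 against -0.10 for all rows. Among 9 genes of cytosolic sensing Casp4 was the 1 called in each comparison with WT. The 10 genes of the ATG8 conjugation system that loads GBPs on vacuoles and the 5 tested prenylation genes had 0 calls (0 and 2 higher in Y3 at an unadjusted p under 0.05).

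Over these 7 lists together, 88 genes were tested. In Y3 against WT 3 were called, all up (3.41%, against 0.663% of all rows), and in Y3/CD103-/- against WT 2, both up (2.27%, against 0.793%). Between Y3/CD103-/- and Y3 limma called 0, and of those with an unadjusted p under 0.05, 1 was higher and 12 were lower, where 10.1% of all rows reached that threshold and the median of all rows was -0.10. The count of 3 was 0 without Y3 array 1 or 3 and 1 without Y3 array 2, and the count of 2 was 0 or 1 without any 1 of the 9 arrays.

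**Figure D4:**
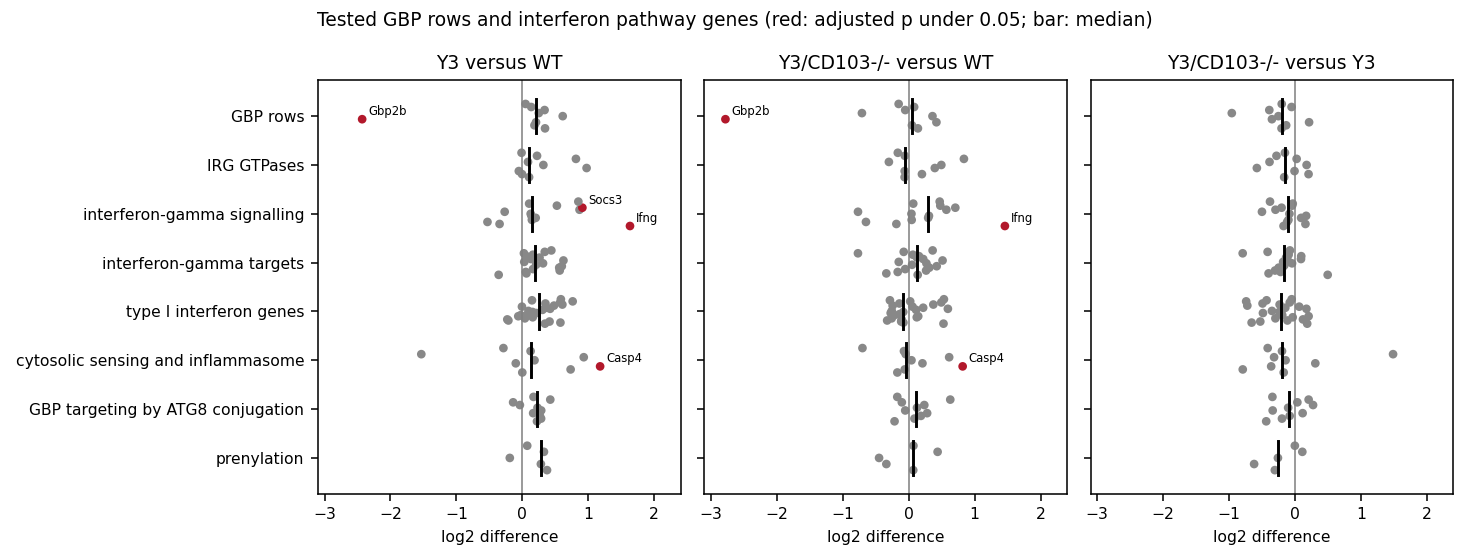
Log2 differences (x axis) of the 9 tested GBP rows and of the tested genes of 7 lists in the 3 comparisons. The lists are immunity-related GTPases, interferon-γ signalling, interferon-γ targets, type I interferon genes, cytosolic sensing, ATG8 conjugation and prenylation. Each point is a row, red and named where the adjusted p was under 0.05, and bars are medians. Gbp2b is far to the left against WT while the bars of the lists lie near 0, and Ifng, Socs3 and Casp4 are the named points to the right. The red of Gbp2b is on the values that chose the family or share their WT arrays, and nothing is read from it.

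The genes whose values followed Gbp2b most closely over the 9 arrays, among 13560 other tested rows that name 1 gene, were F2r, a thrombin receptor (Pearson r = 0.967), Prg4, the lubricant proteoglycan of joints (0.964), Sccpdh (0.963), Pde2a, a cyclic nucleotide phosphodiesterase (0.963), and Nt5e, which encodes the ectonucleotidase CD73 of Tregs (0.962). All 5 were higher on each WT array than on any other array, as Gbp2b was, and by less, with differences in Y3 from -0.34 for Nt5e to -1.01 for Prg4. For Gbp8, which had the highest mean of the other 1-gene member rows, they were Tmem167 (r = 0.974), Parp4 (0.967), Pbx2 (0.963), Exd2 (0.942) and Coro2a (0.936). With the best of so many rows taken over 9 arrays, such values are a description of likeness only.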

How the data were processed

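Affymetrix Gene ST arrays of sorted gut Tregs from 3 genotypes, 3 arrays each, were used. The RNA input was 10 to 20 ng with 1 round of amplification, per the labels' protocols. The authors deposited normalized signals; the submitters' processing notes name RMA, and the range of the values shows that they are log2. A genome build was not given in the sources used here.

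Of 39137 rows, 23521 name 1 gene in the platform annotation, 1814 several and 13802 none. Rows that name a gene entered the fit if they exceeded the median of their array on at least 3 of 9 arrays (14621 tested, 10714 left out). Genotype means were fitted with limma 3.58.1 in R 4.3.3 to all 9 arrays with no block, sharing 1 estimate of the spread. P-values were 2-sided and adjusted by Benjamini-Hochberg over all tested rows. The code was tested on simulated data. Lists took the brightest 1-gene row per gene. Promoters came from RefSeq (GRCm38.p6) and were aligned with Biopython 1.88.

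All member rows were named. Other names followed a rule: pathway-list genes that were called (up to 6 per list and comparison), Ifng, its receptor chains, Irf1 and Socs1, the 2 brightest immunity-related GTPases, the 3 nearest named genes beside each cluster, the 5 rows most like Gbp2b and most like Gbp8, and the label checks. Gbp11 and marker genes (Il2ra, Il10, Icos, Tnfrsf4, Ikzf2, H2-Aa, Cd68 and the cytotoxic lymphocyte genes) were named after their values were seen. The members, lists and alternatives were chosen with earlier results of these data known. Alternatives changed the filter, rows, scaling, variance model, weights, block and arrays. Whether same-numbered arrays are paired is not known, and correlations of their deviations, between -0.04 and 0.13, cannot settle it.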

Additional observations from a re-analysis of the deposited data

How the results depend on the processing

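Over 21 alternatives the log2 difference of Gbp2b from WT ran from -2.69 to -2.22 in Y3 and from -3.04 to -2.57 in Y3/CD103-/-, which describes the contrast that chose it and a comparison on the same WT arrays. The count of member rows called in Y3/CD103-/- against Y3 was 0 with each array left out. The gap from Gbp2b to the other copies ran from -3.02 to -2.44, from -3.19 to -2.54 and from -0.34 to 0.03 in the 3 comparisons. For Y3/CD103-/- against Y3, calls of member rows were also counted in the other alternatives. That count was 1 with a mean-variance trend or with array weights, Gbp8 being the row gained each time. The count of 3 pathway genes in Y3 became 8 with the stricter filter, 13 with the trend, 7 with array weights, 1 with unnamed rows included and 0 with Y3 arrays 1 and 3 averaged, and ran from 0 to 3 with an array left out. The count of 2 in Y3/CD103-/- against WT became 4 with the stricter filter, 5 with the trend, 1 without a filter, with array weights or with the averaged arrays, 0 with unnamed rows included or with only the 2 groups compared, and ran from 0 to 1 with an array left out. Uncalled differences near 0 changed sign. Quantile normalization gave -0.045 for Irf1 in Y3 against WT and 0.0725 for Gbp4, 0.0064 for Ifngr2 and 0.107 for Irgm2 in Y3/CD103-/- against Y3; array weights gave 0.0268 for Irgm2 in Y3 against WT and 0.064 for Gbp4 in Y3/CD103-/- against Y3, and the averaged arrays 0.0213 for Irgm2 there. With an array left out, Y3/CD103-/- against Y3 ran from -0.499 to 0.124 for Gbp10, -0.0048 to 0.42 for Gbp3, -0.33 to 0.37 for Gbp4, -0.32 to 0.0308 for Gbp7, -0.41 to 0.0615 for Ifng, -0.22 to 0.056 for Ifngr2 and -0.12 to 0.0843 for Irgm2. Against WT the difference ran from -0.0778 to 0.278 for Irf1 and -0.167 to 0.0225 for Irgm2 in Y3, and from -0.179 to 0.0862 for Igtp and -0.177 to 0.0162 for Irgm2 in Y3/CD103-/-. Among members it crossed 0 in Y3 for Gbp10 (-0.28 to 0.35) and Gbp4 (-0.20 to 0.34), with Gbp3 from 0.0025 to 0.43, and in Y3/CD103-/- for Gbp4 (-0.26 to 0.50), Gbp5 (-0.09 to 0.26), Gbp7 (-0.04 to 0.21), Gbp9 (-0.14 to 0.04) and Gbp10 (-0.43 to 7e-04). The causes were not tested. The replicate number as a block left 1 of those 2 calls and moved no count of member rows. Whether the numbers are a pairing is not known, and correlations of same-numbered arrays ran from -0.04 to 0.13. The number of arrays limits precision, and no detection call was used, so dim rows such as Gbp6 have no bound.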
